A study of Homo sapiens with 4 samples.

Results

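The 10 genes described here encode 9 apolipoproteins (APOA1, APOA2, APOA4, APOA5, APOB, APOC3, APOE, APOH and APOM) and MTTP, the microsomal triglyceride transfer protein. They were chosen by name, with earlier results of these data known, and all 10 were present among the 19140 genes tested. Their messenger RNA was compared between cells of the human hepatocellular carcinoma line Huh7 treated with siNF90, an siRNA (small interfering RNA) that targets the double-stranded RNA-binding protein NF90, and Huh7 cells treated with siNTC, the control siRNA of the labels. Each group had 2 samples on 1 array each, both groups share the cell line, and the labels give neither the siRNA dose nor the time after treatment. Nothing in them says that the replicates were separate cultures, so p-values reflect the spread among these 4 arrays alone, and that spread may be technical. NF90's own gene is not analysed here, and the depletion was taken from the labels.

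Apolipoproteins are the protein part of plasma lipoproteins, and the liver makes most of them. In the hepatocyte, MTTP loads triglyceride onto nascent APOB in the endoplasmic reticulum, which starts a very low-density lipoprotein (VLDL) particle. APOA1 and APOA2 instead form high-density lipoprotein (HDL), while the small exchangeable apolipoproteins move between particles and set how fast lipases and receptors clear them.

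Values are log2 RMA values (robust multi-array average) of probe sets, each of which covers part of a gene. The 10 genes had 181 probe sets of the 352859 on the array, and 175 of them had a mean over the 4 arrays at or above 2.13, the 40th percentile of all probe sets. The probe set nearest below that limit was one of APOE at 1.92 and the nearest above it one of APOA5 at 2.29. A gene's value on an array is the mean of its probe sets above the limit, and every difference is that of log2 values, siNF90 minus siNTC. Array medians over all probe sets were 2.72 to 2.79. Pearson's r between arrays, taken across genes (not independent replicates), was lowest for the second siNF90 with the second siNTC array, at 0.936, and highest for the first siNF90 with the first siNTC array, at 0.958. The siNF90 arrays had 0.950 with each other, and the second siNF90 array had the lowest r with each of the others, so values without it are given beside the results that rest on it. Hepatocyte markers lay well above the limit in these cells labelled Huh7, with ALB (albumin) at 10.82 and 10.57 on the siNF90 arrays and 11.11 and 11.07 on the siNTC arrays and AFP (alpha-fetoprotein) at 10.76 and 10.80 against 10.84 and 10.85. Levels of different genes come from different probes and are not compared with each other.

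In siNF90 cells APOH, APOC3, APOA5 and APOM had values below those of both siNTC arrays, and APOA2 had values above both. APOM overlapped once repeated probe sets were counted once. The other 5 genes overlapped between the groups. Differences ranged from -0.79 for APOA5 to 0.25 for APOA2, with a median of -0.13 against a median of -0.02 over all genes tested. In the limma test across all genes with Benjamini-Hochberg adjustment, 0 of the 10 genes passed an adjusted p of 0.05, as did 0% of the 19140 genes tested. At an unadjusted p under 0.05 there was 1 gene of the 10, APOA5, among the lower genes (5.29% of all genes) and 0 among the higher ones (3.51% of all genes). The value of APOA5 rests on a probe set that passed the filter only through the siNTC arrays, so its p is no support for a difference. With a trend and robust prior, another way in which limma estimates the spread, 0 of the 10 passed while 0.251% of all genes did. Without overlap there were 4 of 10 genes lower and 1 of 10 higher, where 22% of all genes were lower and 19.2% higher without overlap. Of these 4, APOA5 overlapped without the probe set just named and APOM with repeats counted once. The count of lower genes thus depends on the filter and the repeats. Without the second siNF90 array the counts were again 4 lower and 1 higher of 10. Of all genes 32.3% were then lower and 37.4% higher, since 1 array against 2 overlaps less often. With 2 arrays against 2 an exact two-sided permutation test cannot go below p = 0.333, so none is given for single genes. In bulk RNA, fewer cells that express a gene and less of its RNA per cell cannot be told apart.

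**Figure D1:**
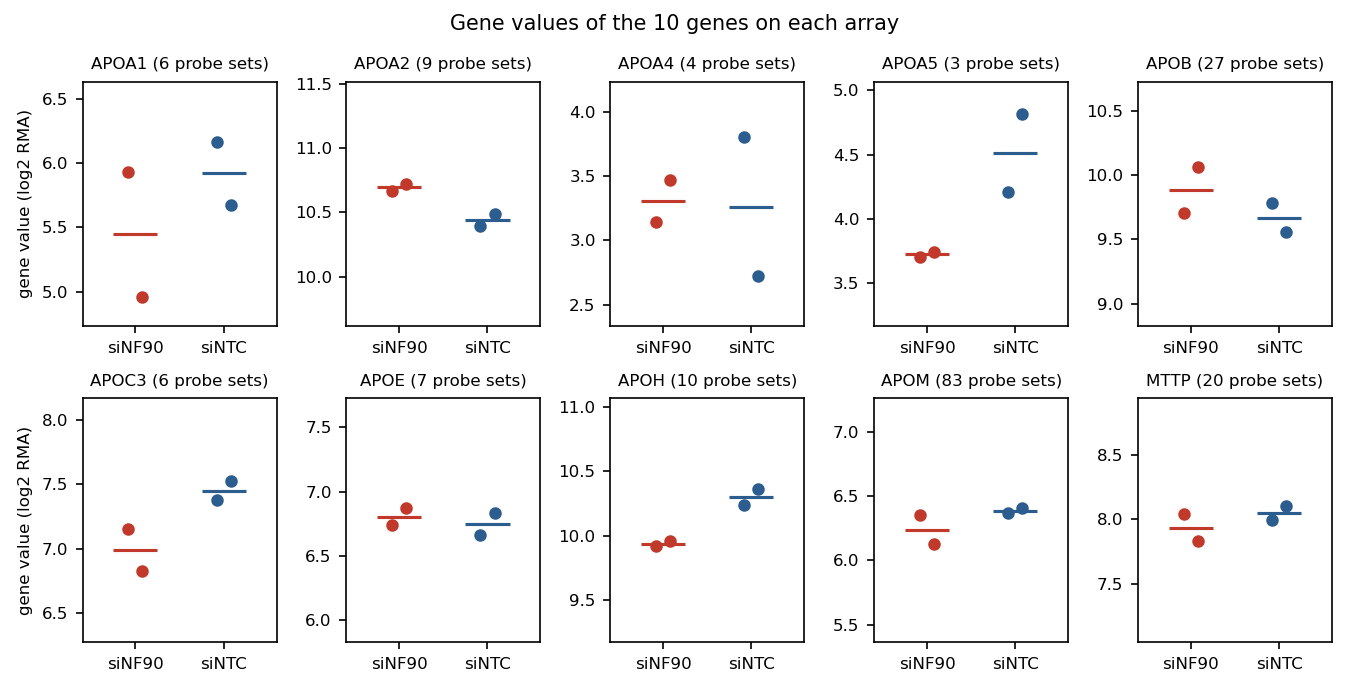
Gene value (log2 RMA, y axis, each panel spanning the same range of log2 units) of the 10 genes on each array, siNF90 left and siNTC right; points are arrays and lines group means of 2 arrays. APOH, APOC3 and APOA5 lie lower on both siNF90 arrays and APOA2 higher, while APOA4 spreads from 2.72 to 3.80 within siNTC.

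APOH, or beta-2-glycoprotein I, is a plasma protein that binds anionic phospholipids and is found free and on lipoproteins. It had 9.92 and 9.96 on the siNF90 arrays, against 10.24 and 10.36 on the siNTC arrays. The siNF90 arrays lay close together, and a gap of 0.29 separated the groups. The difference was -0.36 (SE 0.17, 95% interval from -0.82 to 0.092), a value 1.29-fold lower, with an adjusted p of 0.619 in limma and 0.0965 with the trend and robust prior. All 10 of its probe sets were lower in siNF90, by between 0.23 and 0.57, and 9 of the 10 did not overlap between the groups. The probe sets thus had like differences, and the test for unequal change of probe sets (limma's diffSplice, Simes method) gave APOH a false discovery rate of 0.997. The difference stayed between -0.43 and -0.30 in all settings tried, each single array left out among them.

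The promoter of APOH is shown because this gene had the most even differences over its probe sets. The 250 bases before its start, chr17:66229416-66229665 on the minus strand (RefSeq, GRCh38.p14), hold 2 matches to GTTAAT, the core motif of sites for the HNF1 factors of the liver, in capitals.
APOH: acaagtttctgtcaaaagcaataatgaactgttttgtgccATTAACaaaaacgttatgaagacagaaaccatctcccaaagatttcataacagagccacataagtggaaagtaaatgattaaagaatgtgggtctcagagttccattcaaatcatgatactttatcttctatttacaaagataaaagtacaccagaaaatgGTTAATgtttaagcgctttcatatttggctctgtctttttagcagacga
The first match reads on the opposite strand and begins 210 bases before the start, and the second, on the same strand, begins 49 bases before it. Both strands were searched for GTTAAT, for CAAAGTC (the core of HNF4 sites), for AGGTCA (the core motif of many nuclear receptors) and for TATAAA (the TATA box); these motifs do not overlap in the windows shown. Among 35116 RefSeq windows of 250 bases, 6.23% hold GTTAAT, 2.91% CAAAGTC, 12.1% AGGTCA and 10.7% TATAAA. A match is a run of letters and not a measured binding site. Windows were matched for 7 of the 10 genes, 11 windows in all, and not for APOA1, APOB and APOC3.

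APOC3 and APOA5 act on triglyceride clearance in opposite ways, since APOC3 inhibits lipoprotein lipase and APOA5 promotes its action. APOC3 had 7.16 and 6.83 on the siNF90 arrays, against 7.38 and 7.52 on the siNTC arrays. The groups did not overlap, with the second siNF90 array lowest. The difference was -0.46 (SE 0.21, 95% interval from -0.997 to 0.081), 1.37-fold lower, with an adjusted p of 0.609 in limma and 0.279 with the trend and robust prior. All 6 probe sets were lower in siNF90. The 4 brightest of them had differences from -0.55 to -0.50 and did not overlap, and the dimmest had 2.48 and 2.18 in siNF90 against 2.40 and 2.92 in siNTC cells. Without the second siNF90 array the difference was -0.29, which is the smallest of the settings tried, and without the first it was -0.62, the largest.

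APOA5 had 3.71 and 3.75 on the siNF90 arrays, against 4.21 and 4.81 on the siNTC arrays. The difference of -0.79 (SE 0.26, 95% interval from -1.47 to -0.11) is the largest of the 10 in size, 1.73-fold lower, with an unadjusted p of 0.0312 and an adjusted p of 0.536 in limma. It rests on 1 of the 3 probe sets above the limit. That probe set had 1.59 and 0.82 in siNF90 cells, against 2.47 and 4.26 in siNTC cells. Its mean of 1.21 in siNF90 cells was below the limit of 2.13, and it was kept only through its mean of 3.37 in siNTC cells, so it had to differ. The other two had 4.61 and 4.98 against 5.12 and 5.29, and 4.91 and 5.44 against 5.05 and 4.89, so that 1 was lower and 1 overlapped. Without the first of these probe sets the APOA5 difference was -0.099 (SE 0.22) and the groups overlapped. The stricter filter at the 60th percentile removes that probe set too and gave the same value, with an adjusted p of 0.887. Another 2 probe sets of APOA5 lay below the limit. With the median of its probe sets in place of the mean the difference was -0.17, and without the second siNTC array it was -0.49.

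The RefSeq table has 2 starts for APOA5, and the probe sets do not say which was used. The window of the outer start, chr11:116792421-116792670 on the minus strand (GRCh38.p14), is shown because the gene value of APOA5 lay lower without overlap. That separation rests on the probe set kept only through the siNTC arrays, so the motifs are not set against a difference. Capitals mark 2 matches to AGGTCA and 1 to GTTAAT.
APOA5: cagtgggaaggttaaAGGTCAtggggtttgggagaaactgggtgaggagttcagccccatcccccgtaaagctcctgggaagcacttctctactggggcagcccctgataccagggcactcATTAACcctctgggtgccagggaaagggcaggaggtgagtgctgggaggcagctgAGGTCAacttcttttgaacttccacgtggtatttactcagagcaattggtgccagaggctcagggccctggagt
The AGGTCA matches begin 235 and 74 bases before the start and the GTTAAT match, on the opposite strand, 129 bases before it. The window of the inner start holds 1 AGGTCA and none of the other motifs.

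APOA1 and APOA2, the main proteins of HDL, had differences of opposite sign. APOA2 had 10.66 and 10.72 on the siNF90 arrays, against 10.40 and 10.48 on the siNTC arrays. The groups were separated by a gap of 0.18, and the difference was 0.25 (SE 0.17, 95% interval from -0.20 to 0.71), 1.19-fold higher, with an adjusted p of 0.709 in limma and 0.165 with the trend and robust prior. Of its 9 probe sets 7 were higher, 5 of them without overlap, and 2 were lower, 1 without overlap. The size differed between them. One probe set had 9.20 and 9.46 in siNF90 cells, against 8.67 and 8.54 in siNTC cells, while the brightest had 12.07 and 12.26 against 12.06 and 12.09. The difference had the opposite sign, -0.11, when the median of the probe sets on each array was taken, which is the value of 1 probe set per array. The median of the differences of the 9 probe sets was 0.22. Without the probe set of the largest difference APOA2 had 0.19, still without overlap. The direction for APOA2 thus depends on how the probe sets are summarised.

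The APOA2 window, chr1:161223629-161223878 on the minus strand (GRCh38.p14), is shown because APOA2 had values above both siNTC arrays. Its direction depended on how the probe sets were summarised, so the windows are not compared by direction. The APOA2 window holds none of the 4 motifs and so has no capitals.
APOA2: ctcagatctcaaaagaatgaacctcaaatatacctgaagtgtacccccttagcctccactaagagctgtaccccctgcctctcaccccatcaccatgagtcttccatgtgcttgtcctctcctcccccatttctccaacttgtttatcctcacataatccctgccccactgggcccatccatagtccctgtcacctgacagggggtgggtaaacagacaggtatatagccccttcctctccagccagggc
The windows of APOM and APOA4 likewise hold no match to these letters, as do all 3 windows of APOE and 1 of 2 windows of MTTP. The second MTTP window holds 1 AGGTCA and 1 TATAAA, both on the opposite strand. Nothing follows from a missing match about the factors themselves.

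APOA1, the structural protein of HDL and the acceptor of cholesterol exported from cells, had 5.93 and 4.96 on the siNF90 arrays, against 6.17 and 5.68 on the siNTC arrays. The groups overlapped, because the first siNF90 array lay above the second siNTC array. The difference was -0.47 (SE 0.39, 95% interval from -1.50 to 0.55) with an adjusted p of 0.754 in limma. A single probe set gave most of it, with 4.11 and 1.31 in siNF90 cells, against 5.23 and 5.21 in siNTC cells. Without it the difference of APOA1 was -0.067 (SE 0.32), and without the second siNF90 array it was 0.011. The -0.067 still includes a dim, higher probe set kept only through the siNF90 group (means 2.65 in siNF90 and 1.93 in siNTC cells). The filter at the 60th percentile leaves out that dim probe set and keeps the one at 4.11 and 1.31, and gave -0.71 (adjusted p = 0.585 in limma). The 3 probe sets without overlap were all lower, and the brightest of them had 10.25 and 10.10 in siNF90 cells, against 10.48 and 10.25 in siNTC cells.

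APOM carries sphingosine-1-phosphate on HDL. It had 6.35 and 6.12 on the siNF90 arrays, against 6.36 and 6.40 on the siNTC arrays, so the gap between the groups was 0.014. The difference was -0.15 (SE 0.19, 95% interval from -0.63 to 0.34), and limma's adjusted p was 0.841. Without the second siNF90 array it was -0.034, and with the median of the probe sets or without the first siNF90 array -0.26. The array held 84 probe sets named APOM, and the 83 above the limit carried 22 distinct sets of values, of which 11 occurred 6 times, 1 occurred 7 times and 10 once. Counted once, 15 of the 22 were lower, 9 without overlap, and 7 were higher, 4 without overlap. The repeats hold the same values on all 4 arrays and add no information. With each counted once APOM had 6.54 and 6.24 on the siNF90 arrays, against 6.52 and 6.52 on the siNTC arrays, a difference of -0.13, so the groups then overlapped. The probe set that occurred 7 times had 7.05 and 6.78 in siNF90 cells, against 7.61 and 7.85 in siNTC cells. One that occurred once had 7.16 and 7.22 in siNF90 cells, against 6.79 and 6.81 in siNTC cells. Neither passed the limma test of single probe sets (adjusted p = 0.683 and 0.807), and the test for unequal change gave APOM a false discovery rate of 0.854.

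APOA4, an apolipoprotein made mainly by the intestine, was close to the limit of the filter. It had 3.14 and 3.47 on the siNF90 arrays, against 3.80 and 2.72 on the siNTC arrays, which lay on either side of both. The difference was 0.046 (SE 0.41, 95% interval from -1.01 to 1.11), and limma's adjusted p was 0.984. Its direction was not settled by these arrays, since the value ranged from -0.49 without the second siNTC array to 0.59 without the first.

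**Figure D2:**
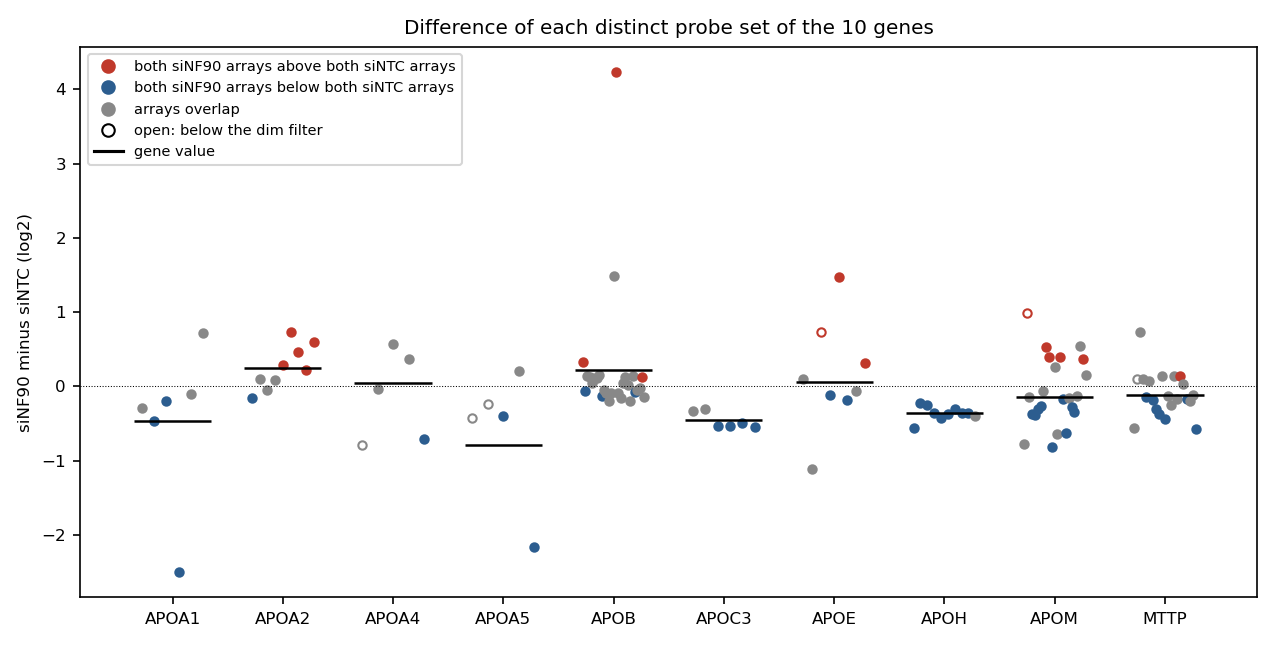
Difference siNF90 minus siNTC (log2, y axis) of each probe set of the 10 genes, repeats drawn once; black lines are gene values, open points lie below the dim filter, and colours give the position of the siNF90 arrays relative to the siNTC arrays. All 10 points of APOH and all 6 of APOC3 lie below 0, while single probe sets lie far from the rest in APOA1, APOA5, APOB and APOE.

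APOB, the non-exchangeable scaffold of VLDL and low-density lipoprotein (LDL), overlapped between the groups. It had 9.70 and 10.06 on the siNF90 arrays, against 9.78 and 9.55 on the siNTC arrays. The difference of 0.22 (SE 0.22, 95% interval from -0.36 to 0.79) had an adjusted p of 0.799 in limma. It was 0.036 without the second siNF90 array and 0.396 without the first, and 0.102 without the second siNTC array and 0.330 without the first. Of its 27 probe sets 14 were higher and 13 lower. One probe set stood far from the others, with 2.23 and 7.67 in siNF90 cells, against 0.92 and 0.52 in siNTC cells, a difference of 4.23. Its high value came from the second siNF90 array alone, and on each siNTC array it lay below the limit of the filter, which it passed only through the siNF90 group. The one before it in ID order had the second largest difference, 1.48, with 3.40 and 4.54 in siNF90 cells, against 3.83 and 1.15 in siNTC cells.

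The remaining 25 probe sets of APOB differed by between -0.20 and 0.33. Without the first of these outlying probe sets the APOB difference was 0.062 (SE 0.19), and with the median of the probe sets it was -0.13. The test for unequal change called APOB, with a false discovery rate of 0.000137 over 16175 genes, of which 2.76% were called, and the other 9 genes were not called. This call includes the outlying probe set and was lost when any array but the first siNF90 array was left out. Without the second siNF90 array the smallest false discovery rate among the 10 genes was 0.298, without the second siNTC array 0.146, without the first siNTC array 0.0690, and under the stricter filter at the 60th percentile 0.423. The outlying probe set behind this call passed the filter only through the siNF90 group, so the call is no support for unequal change of APOB. Whether that probe set reports APOB transcript was not tested.

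MTTP, which lipidates APOB, had 8.04 and 7.83 on the siNF90 arrays, against 7.997 and 8.10 on the siNTC arrays. The groups overlapped, with the second siNF90 array lowest. The difference was -0.11 (SE 0.19, 95% interval from -0.60 to 0.37), and limma's adjusted p was 0.883. It was -0.011 without the second siNF90 array and -0.22 without the first, and -0.062 without the second siNTC array. Of its 20 probe sets above the limit 13 were lower, 7 of them without overlap, and 7 were higher, 1 without overlap. Probe sets that did not overlap included one with 9.05 and 8.84 in siNF90 cells, against 9.32 and 9.31 in siNTC cells. With the median of the probe sets the MTTP difference was 0.036, and without the probe set of the largest difference it was -0.16, with the siNF90 arrays then both below the siNTC arrays.

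APOE, the ligand through which receptors take up remnant particles, had 6.74 and 6.87 on the siNF90 arrays, against 6.66 and 6.84 on the siNTC arrays. The difference was 0.056 (SE 0.18, 95% interval from -0.42 to 0.54), and limma's adjusted p was 0.944. Of its 7 probe sets above the limit, 3 lay between 1.39 and 3.77 on all arrays, and 4 were bright. The bright ones split, with 3 lower by between 0.069 and 0.18 and 1 higher, at 9.46 and 9.33 in siNF90 cells, against 9.17 and 8.998 in siNTC cells. One dim probe set had 3.29 and 3.65 in siNF90 cells, against 1.84 and 2.14 in siNTC cells, an unadjusted p of 0.00988 and an adjusted p of 0.630 in the test of single probe sets. Without it the APOE difference was -0.18 (SE 0.18) and the siNF90 arrays were both below the siNTC arrays, so the sign for APOE depended on that probe set. The probe sets left include another dim one, with 1.39 and 2.40 in siNF90 cells, against 2.24 and 3.77 in siNTC cells. That one was kept only through the siNTC group, so the -0.18 and the separation support no difference. The filter at the 60th percentile, which leaves out all 3 dim probe sets, gave -0.016.

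**Figure D3:**
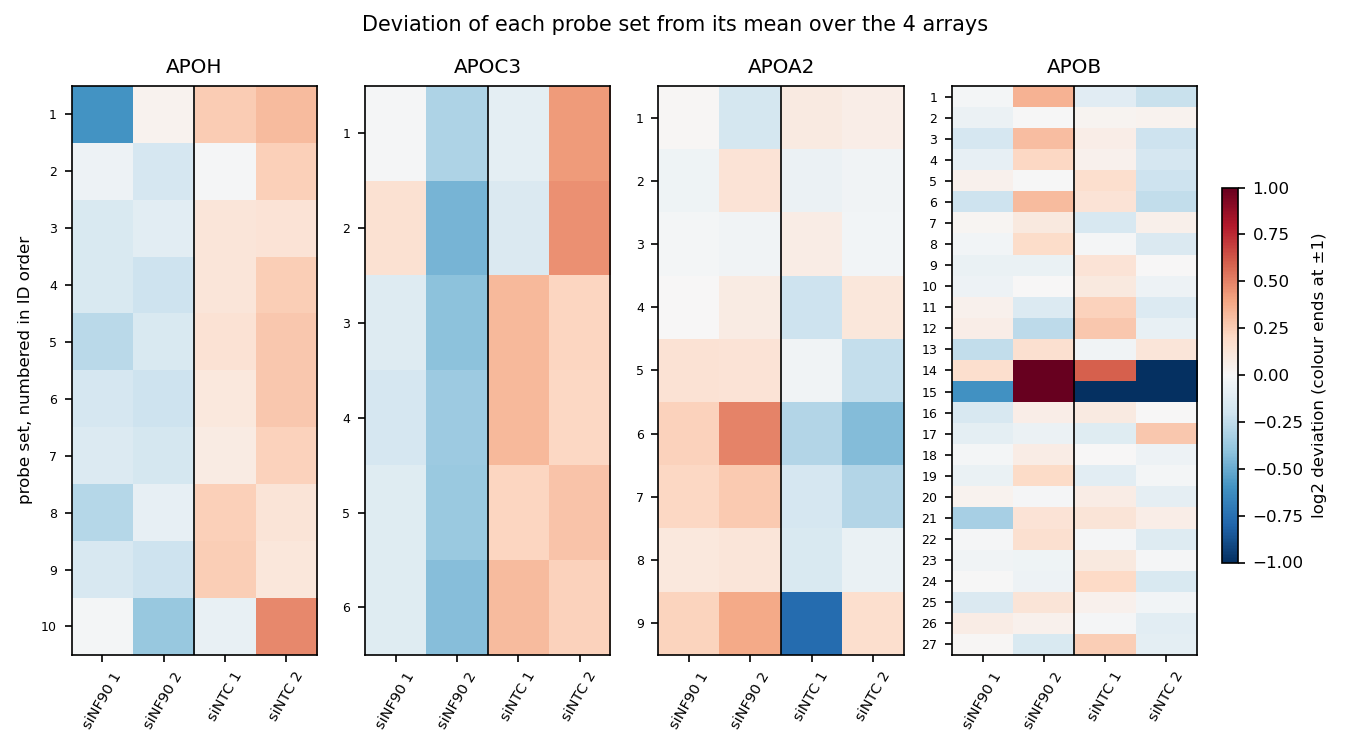
Deviation (log2, colour, ending at 1 in either direction) of each probe set above the filter from its own mean over the 4 arrays, for APOH, APOC3, APOA2 and APOB; columns are arrays, siNF90 left of the line, and rows are probe sets in ID order. APOH and the last 4 probe sets of APOC3 are evenly lower in siNF90, APOA2 is higher mainly in its last 5, and in APOB the outlying probe set 15 is high on the second siNF90 array.

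Single probe sets were also tested across all 211715 above the limit. In limma 0 of the 175 probe sets of the 10 genes passed an adjusted p of 0.05, as did 0% of all, and the same held with the trend and robust prior (0 of 175 and 0%). At an unadjusted p under 0.05 there were 2, the dim APOE probe set above and the one of APOA5. Both passed the filter only through the group where they are high, with means of 3.47 in siNF90 and 1.99 in siNTC cells for the one of APOE, so these p-values support no difference. The same held for 5 distinct probe sets of the 10 genes in all, 1 of them lower and 2 higher without overlap. With repeats counted once the 10 genes had 114 distinct probe sets, 72 lower and 42 higher. The 2 siNF90 arrays were both below the siNTC arrays in 41 of them (36%, against 20.3% of all probe sets) and above in 15 (13.2%, against 17.9%). The shares of all probe sets count repeats each time and include probe sets with no gene symbol or several. Probe sets of 1 gene report the same RNA and are not replicates, and 9 of the 41 came from APOH and 9 from APOM.

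**Figure D4:**
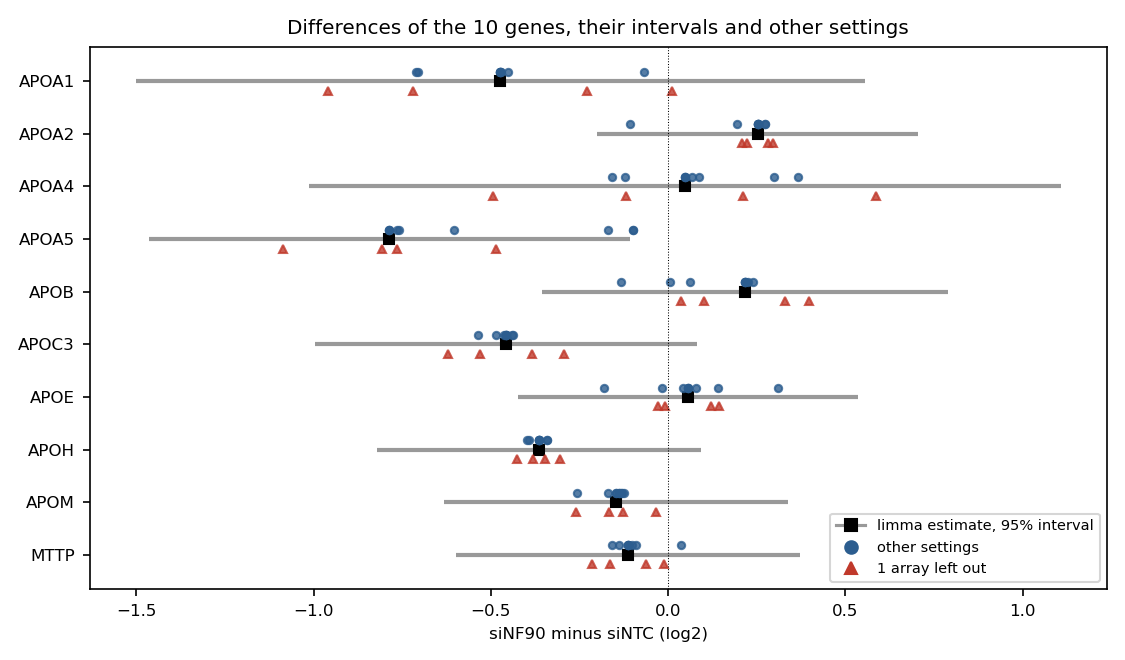
Difference siNF90 minus siNTC (log2, x axis) of each of the 10 genes, with the limma estimate (square) and its 95% interval (bar, 2 arrays per group), the value in other settings (circles) and with 1 array left out (triangles). APOH and APOC3 keep below 0 throughout, from -0.43 to -0.30 and from -0.62 to -0.29, and the APOA4 values lie on both sides of 0.

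Genes that work with these proteins were taken from lists chosen by function. The APOB partners of VLDL assembly and secretion had 14 of 20 positive differences and a median of 0.082. Without overlap 10 were higher and 3 lower (19.2% and 22% of all genes), and 0 passed the limma test over all genes. AADAC, a lipase-like deacetylase of the endoplasmic reticulum, had 3.14 and 2.67 on the siNF90 arrays, against 3.59 and 3.69 on the siNTC arrays, a difference of -0.74 (SE 0.23, adjusted p = 0.530). TM6SF2, which promotes lipidation of VLDL, had 4.57 and 4.045 against 4.75 and 4.92, with a difference of -0.53 (SE 0.25, adjusted p = 0.613). SAR1B and MIA3, of large-cargo export from the endoplasmic reticulum, had positive differences. SAR1B, the COPII coat GTPase needed for chylomicron export, had 0.42 (SE 0.21, adjusted p = 0.634), and the cargo receptor MIA3 (TANGO1) 0.39 (SE 0.20, adjusted p = 0.631).

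The editing of APOB messenger RNA, which makes the short intestinal form, needs the deaminase APOBEC1 and an RNA-binding partner. RBM47, such a partner, had 4.999 and 5.41 on the siNF90 arrays, against 4.20 and 4.70 on the siNTC arrays, a difference of 0.75 (SE 0.27, adjusted p = 0.550). A1CF, the other partner, had 8.60 and 8.55 against 8.76 and 8.75, a difference of -0.17 (SE 0.17, adjusted p = 0.791). APOBEC1 had 1 probe set above the limit, with 1.74 and 3.37 in siNF90 cells, against 1.97 and 1.895 in siNTC cells (adjusted p = 0.775). Only its second siNF90 value lay above 2.13, so APOBEC1 was kept only through the siNF90 group. In this list of 3 genes 0 passed the limma test.

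Of the other apolipoproteins 11 of the 15 listed were measured, 7 with negative and 4 with positive differences and a median of -0.16, and 0 passed the limma test. APOO, a protein of the mitochondrial inner membrane, had 3.59 and 3.60 on the siNF90 arrays, against 4.06 and 4.44 on the siNTC arrays, a difference of -0.65 (SE 0.21, adjusted p = 0.531). APOC1, an inhibitor of lipid transfer and of lipase action, had 4.70 and 4.64 against 4.94 and 5.05, a difference of -0.33 (SE 0.17, adjusted p = 0.649) from 2 probe sets. APOL6 had -0.45 (SE 0.24, adjusted p = 0.644), and APOF, an inhibitor of cholesteryl ester transfer, 0.43 (SE 0.26, adjusted p = 0.681).

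Genes of HDL formation and plasma remodelling had 8 negative and 6 positive differences among 14 measured of 16 listed, with a median of -0.048 and 0 past the limma test. Without overlap 4 were lower, the cholesterol exporters ABCA1 and ABCG1 among them, and 2 higher (22% and 19.2% of all genes). ABCA1, which loads lipid onto APOA1, had 5.14 and 5.17 on the siNF90 arrays, against 5.57 and 5.73 on the siNTC arrays, a difference of -0.50 (SE 0.18, adjusted p = 0.550) over 39 probe sets. ABCG1, which exports cholesterol to mature HDL, had -0.39 (SE 0.18, adjusted p = 0.613). The antioxidant HDL enzyme PON3 had 0.51 (SE 0.27, adjusted p = 0.643), and LCAT, which esterifies HDL cholesterol, 0.33 (SE 0.18, adjusted p = 0.649).

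Lipoprotein receptors and adaptors had 10 negative differences among 14 measured of 16 listed, a median of -0.17 and 0 past the limma test. With the trend and robust prior 1 passed. This was CD36, a scavenger receptor and fatty acid transporter, at 2.91 and 3.14 on the siNF90 arrays, against 4.64 and 4.92 on the siNTC arrays (difference -1.75, adjusted p = 0.0432 with that prior). LRP8, a receptor that binds APOE, had 4.98 and 4.77 against 5.50 and 5.62, a difference of -0.69 (SE 0.19, adjusted p = 0.514). MYLIP, a ubiquitin ligase that marks lipoprotein receptors for degradation, had 0.51 (SE 0.20, adjusted p = 0.578), and the heparan sulfate proteoglycan SDC1, which binds remnant particles, -0.44 (SE 0.27, adjusted p = 0.680).

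Transcription factors that act on apolipoprotein genes had a median difference of -0.0084 over 19 measured of 21 listed, with 12 negative and 7 positive, and 0 passed the limma test. NR0B2 (SHP), a corepressor of other nuclear receptors, passed with the trend and robust prior, where 0.251% of all genes did. It had 6.77 and 6.72 on the siNF90 arrays, against 5.20 and 4.995 on the siNTC arrays (difference 1.65, adjusted p = 0.00851 with that prior). NR1D1, a repressor of APOC3 transcription, had 4.02 and 3.90 against 4.37 and 4.31 (difference -0.38, SE 0.18, adjusted p = 0.612). HNF4G had -0.43 (SE 0.21, adjusted p = 0.631), and CEBPB, a leucine zipper factor of the acute phase response, 0.35 (SE 0.18, adjusted p = 0.640). Whether any of these genes bears on the values of the 10 was not tested.

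Hepatocyte markers, AFP and GPC3 among them, had 7 negative and 3 positive differences, against 6 and 4 for the 10 genes. Of the 10 listed, 7 were lower and 1 higher without overlap (22% and 19.2% of all genes), the median difference was -0.14, and 0 passed the limma test. The coagulation protein FGB had -0.52 (SE 0.18, adjusted p = 0.547), the proteoglycan GPC3 -0.40 (SE 0.19, adjusted p = 0.616) and ALB -0.39 (SE 0.19, adjusted p = 0.620), while TTR, the thyroxine carrier, had 0.25 (SE 0.17, adjusted p = 0.713). The mean of the 10 markers was 9.63 and 9.62 on the siNF90 arrays, against 9.73 and 9.79 on the siNTC arrays. Markers of other cell types, 10 measured of 12, had a median of 0.058 and a mean of 3.79 and 3.84 on the siNF90 arrays, against 3.73 and 3.90 on the siNTC arrays. Of these 1 was lower and 3 higher without overlap, and 0 passed the limma test. ACTA2, the actin of smooth muscle and myofibroblasts, had 4.88 and 4.67 on the siNF90 arrays, against 5.44 and 5.16 on the siNTC arrays, a difference of -0.53 (SE 0.20, adjusted p = 0.567). The fibroblast collagen COL1A2 had -0.34 (SE 0.24, adjusted p = 0.717), the brush-border protein VIL1 0.27 (SE 0.19, adjusted p = 0.713) and the intestinal keratin KRT20 0.29 (SE 0.24, adjusted p = 0.749). The other fibroblast collagen, COL1A1, had 0.092 (SE 0.17), and of the other intestinal markers FABP2 had -0.16 (SE 0.22) and SI 0.27 (SE 0.22). Neither cell type had a shared direction. The part of either list in the values of the 10 genes was not tested.

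**Figure D5:**
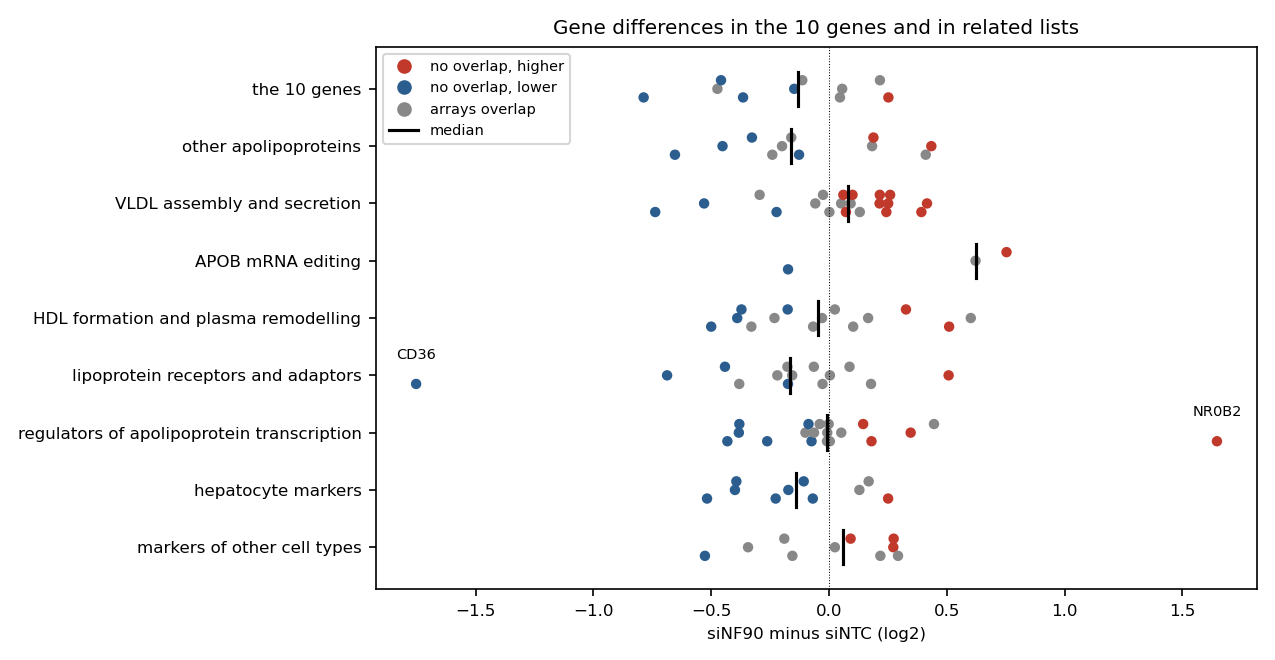
Difference siNF90 minus siNTC (log2, x axis) of the 10 genes, of related lists and of marker lists; each point is a gene, coloured by whether the 2 siNF90 arrays lie beyond both siNTC arrays, and black bars are medians. The medians lie between -0.17 and 0.082 except for the 3 editing genes at 0.62, and CD36 at -1.75 and NR0B2 at 1.65 lie farthest out. The 0.62 is the value of APOBEC1. Its 1 probe set (means 2.55 in siNF90 and 1.93 in siNTC, limit 2.13) was kept only through the siNF90 group, so this median supports no difference.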

How the data were processed

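Messenger RNA of Huh7 cells was measured on 4 arrays, 2 siNF90 and 2 siNTC, grouped by the sample titles. Column-purified total RNA was amplified and turned into labelled single-stranded cDNA, per the labels. The deposited log2 values were made by the authors in Affymetrix Expression Console by RMA-sketch, per the labels, which corrects background, normalizes quantiles and summarises probes. The log base was taken from the method and the range of values, and neither version nor genome build is given in the sources used here. Averaging gives every probe set the same weight, so 1 weak probe set can move a gene's value in either direction.

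Of 352859 rows, 257971 had 1 gene symbol in the platform's table, which can be old, 17460 had several and 77428 had none listed. Rows with 1 symbol and a mean at or above the 40th percentile (171120) were averaged per gene. Tests used limma 3.58.1 in R 4.3.3 (lmFit, eBayes, two-sided, no covariate) with Benjamini-Hochberg adjustment over all genes or all rows, and diffSplice for unequal rows. The fit was checked on simulated data. The number of arrays limits the precision.

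The 10 genes and the lists were chosen with earlier results of these data known. All 10 are named. Of each list the up to 4 genes with the smallest p are named, with any that passed, and ALB, AFP, COL1A1, FABP2 and SI as markers. Each row is a probe set; those described singly were chosen after their values were seen. Alternatives were other dim filters, the median of rows, repeated rows counted once, renewed quantile normalization, centring, the replicate number as a block, a trend and robust prior, each array left out, and, added after seeing the data, the row of the largest difference left out and all alternatives for diffSplice. Motifs were searched in RefSeq promoter windows (GRCh38.p14).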

Additional observations from a re-analysis of the deposited data

How the results depend on the processing

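In all settings 0 of the 10 genes passed, by limma, where 1 of them had an unadjusted p under 0.05 in the main setting. APOH, APOC3, APOA5 and APOM kept a negative difference in all settings. The sign turned for APOA4 without the dim filter (-0.12), with the median of probe sets (-0.16), without the second siNTC array (-0.49) and without the second siNF90 array (-0.12). It turned for APOE with the filter at the 60th percentile (-0.016), without the first siNTC array (-0.030), without the second siNF90 array (-0.0078) and without its probe set of the largest difference (-0.18). With the median of probe sets it also turned for APOA2 (-0.11), APOB (-0.13) and MTTP (0.036), and without the second siNF90 array for APOA1 (0.011). With 1 array left out the difference ranged from -0.96 to 0.011 for APOA1, from -0.49 to 0.59 for APOA4 and from -0.030 to 0.14 for APOE. Over all genes limma called 4 of 25029 without the dim filter and 48 of 19140 with the trend and robust prior, against 0 in the main setting. With 1 array left out, between 5 and 9 of the 10 genes did not overlap, and between 69.1% and 72.2% of all genes, since 2 against 1 arrays overlap less often by construction. For unequal probe sets 0 to 1 of the 10 genes was called with 1 array left out, and 0 under the stricter filter (60th percentile), which leaves out both outlying probe sets of APOB. The replicate number as a block called 0 genes and 0 of the 10, and APOH then had an adjusted p of 0.666. The first arrays of both groups, as deviations from their group means, correlated at -0.012 across genes. With 2 arrays per group this is a single value, which cannot show whether the numbers mark a shared culture or day. Other settings kept direction and side of the threshold. Signals near 2.13 limit APOA4, APOA5 and the dim probe sets of APOE.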

Other observations

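APOA1, APOC3, APOA4 and APOA5 lie side by side on chromosome 11 in the RefSeq table, and their neighbours did not share a direction. In chromosome order BUD13, a splicing factor, had a difference of -0.033, followed by APOA5 at -0.79, APOA4 at 0.046, APOC3 at -0.46 and APOA1 at -0.47. The kinase SIK3 came next at -0.17, the phospholipase subunit PAFAH1B2 at -0.092, SIDT2 at 0.11, TAGLN at 1.29, the protease PCSK7 at -0.0029 and RNF214 at 0.36. TAGLN, an actin-binding protein, had 4.80 and 4.74 on the siNF90 arrays, against 3.36 and 3.60 on the siNTC arrays (SE 0.19, adjusted p = 0.514 in limma and 0.102 with the trend and robust prior). Without overlap 3 measured genes of this list were lower (APOA5, APOC3 and SIK3) and 3 higher (SIDT2, TAGLN and RNF214), where 22% and 19.2% of all genes were. APOA5 overlapped without its probe set that was kept only through the siNTC arrays. In this list of 12 genes 11 were measured and 0 passed.

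The genes measured around APOE on chromosome 19 had differences from -0.33 to 0.24. TOMM40, a subunit of the mitochondrial import pore and the neighbour of APOE on one side, had 6.61 and 6.51 on the siNF90 arrays, against 6.96 and 6.82 on the siNTC arrays (difference -0.33, SE 0.18, adjusted p = 0.649). APOC1, the neighbour on the other side, had -0.33, and CLPTM1 and RELB farther on had 0.23 and 0.24. NECTIN2 and BCAM beyond TOMM40 had -0.078 and 0.11. Of the 10 genes listed there 7 were measured and 0 passed the limma test.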
